A study of Sus scrofa with 6 samples.

Results

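The miR-34 and miR-449 family is a group of short regulatory RNAs named by a shared seed, the stretch near the 5′ end of a miRNA that pairs with its target transcripts. Members were taken by name from the deposited table, as every entry called miR-34a, miR-34b, miR-34c, miR-449a, miR-449b or miR-449c of the pig, with or without an arm suffix. Of these 6 names, miR-34a and miR-34c matched 1 entry each, so the family had 2 members among 1645 entries, of which 358 were known pig miRNAs. No entry of the table used here carried the name miR-34b, miR-449a, miR-449b or miR-449c, and these are not analysed here. Neither member was listed with a second arm, so the use of the hairpin's arms could not be compared.

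The libraries came from immature Sertoli cells, the somatic cells of the seminiferous tubule that support germ cells, isolated from fetal pig testis at 80 to 90 days of gestation. They were cultured with 10% serum for 6 h and then either given 250 µM AA2P, the 2-phosphate ester of L-ascorbic acid (a stable form of vitamin C), which gave 3 libraries, or left untreated as controls, which gave 3 libraries. The duration of the treatment is not given in the sources used here, nor is it stated if replicate libraries were separate animals or cultures, so p-values measure only the spread between these libraries, which may be technical. The comparison asks which miRNAs differed with AA2P.

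In mammals, the transcription factor p53 directly activates the gene of miR-34a and the shared gene of miR-34b and miR-34c, and these miRNAs repress cell cycle and survival transcripts such as CDK6, CCND1, MET and BCL2, and the deacetylase SIRT1. The miR-449 members lie in an intron of CDC20B. In mouse, miR-34b, miR-34c and the miR-449 cluster are abundant in meiotic and later germ cells, and loss of both clusters together leaves males infertile and impairs the formation of motile cilia. In the RefSeq annotation of Sscrofa11.1, the pig gene for miR-34c (MIR34C-1) overlapped BTG4, an anti-proliferative gene, and C9H11orf88. That table was used for names and gene neighbours only, since no source used here names the build behind the deposited values.

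miR-34a and miR-34c were moderately abundant in these cells and both stood higher with AA2P, by 30.0% and 35.8% of the control mean. Only miR-34c passed the test over all entries, and it was the weakest of all calls by its p-value. The tested entries as a whole also stood higher with AA2P, if by less, and neither member was called under any of 5 other ways of scaling the libraries.

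miR-34a, the member transcribed from a gene of its own, stood at 421, 369 and 362 TPM in AA2P libraries 1 to 3, against 315, 256 and 315 TPM in control libraries 1 to 3. TPM here are reads scaled to a common library total, with no correction for length. The groups did not overlap, although the lowest AA2P library lay only 47.0 TPM above the highest control library. The means were 384 ± 32.2 TPM with AA2P and 295 ± 33.8 TPM in controls (SD, n = 3 each), a ratio of 1.30.

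miR-34c, which represses much the same transcripts, stood at 283, 213 and 230 TPM in AA2P libraries 1 to 3, against 183, 169 and 182 TPM in control libraries 1 to 3. Again the groups did not overlap. The AA2P libraries were spread more widely than the controls, with replicate 1 apart at the top. The means were 242 ± 36.3 TPM with AA2P and 178 ± 8.01 TPM in controls (SD, n = 3 each), a ratio of 1.36.

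**Figure D1:**
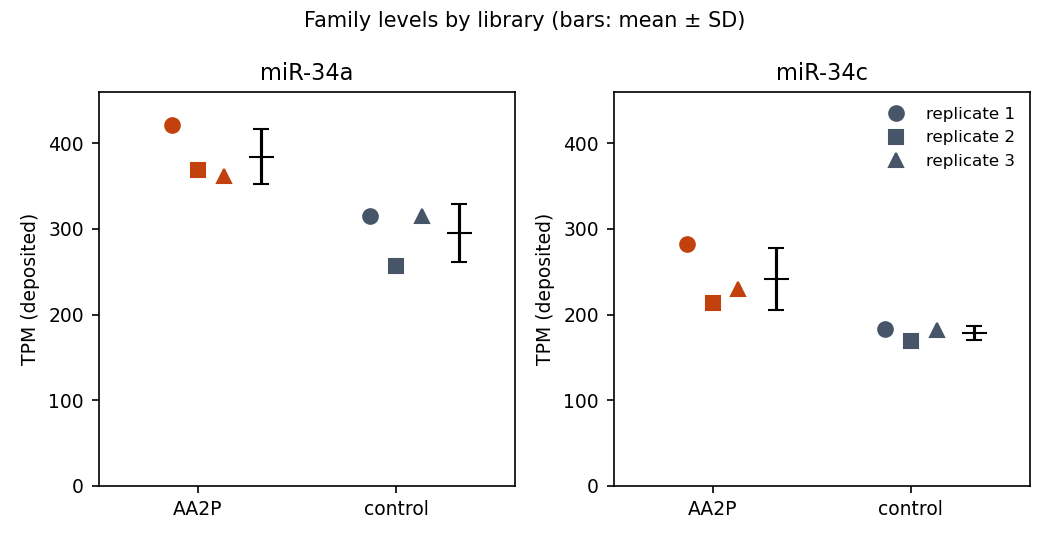
TPM of miR-34a (left) and miR-34c (right) in each AA2P and control library, with symbols for the replicate number and bars for the mean ± SD of 3 libraries. All AA2P libraries lie above all control libraries for both members, AA2P replicate 1 is the highest for both (421 and 283 TPM) and control replicate 2 the lowest (256 and 169 TPM).

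Depth was not the limit on these values. The step between the lowest TPM values put the libraries at 26.9 to 36.0 Mreads (M for mega) with AA2P and 25.8 to 32.2 Mreads in controls. miR-34a then rested on 11315 to 13288 reads with AA2P and 8131 to 9556 reads in controls, and miR-34c on 7459 to 7673 and 4730 to 5535 reads. Counting error alone was 0.868 to 0.940% of the miR-34a value with AA2P and 1.02 to 1.11% in controls, and 1.14 to 1.16% and 1.34 to 1.45% of the miR-34c value. The spread between libraries was several times larger, at 8.38% (AA2P) and 11.4% (control) of the mean for miR-34a and at 15.0% (AA2P) and 4.49% (control) for miR-34c. Counting errors treat reads as independent molecules, which reads without molecular identifiers are not.

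By level, miR-34a was the 91st and miR-34c the 106th of the 358 known miRNAs over all libraries. The rank of miR-34a within a library was 91, 92 and 92 with AA2P and 92, 95 and 89 in controls, so that the groups overlapped. The rank of miR-34c was 99, 107 and 104 with AA2P and 110, 111 and 111 in controls, without overlap. miR-34a was above miR-34c in all 6 libraries. Together they made up 0.0425 to 0.0704% of a library. Their summed level was 704, 583 and 592 TPM with AA2P and 498, 425 and 498 TPM in controls. This difference of 153 TPM between the group means gave p = 0.1 in a two-sided exact permutation test, the smallest value that 3 against 3 libraries allow. Under the 5 other scalings the difference was 42.4 to 79.1 scaled TPM (two-sided exact permutation p = 0.3 to 0.5).

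The test over all entries was made by limma on log2(TPM + 1), a scale that understates changes of low entries but hardly those of members at this level. miR-34c had a log2 fold change of 0.43 (SE 0.12, unadjusted 95% interval 0.14 to 0.72) and was called higher (limma, adjusted p = 0.0464). miR-34a had a log2 fold change of 0.38 (SE 0.11, unadjusted 95% interval 0.10 to 0.66) and missed the threshold of 0.05 (limma, adjusted p = 0.0577). Thus 1 of 2 members was called higher, where 86 of the 433 entries tested, or 19.9%, were called higher and 24.7% were called in either direction. In order of p, miR-34c was the 107th of the 107 calls and miR-34a the 114th entry. AA2P libraries lay wholly above controls for both members, and did so for 40.4% of all tested entries. That miR-34c was called and miR-34a was not does not show that they changed by different amounts.

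Most entries stood somewhat higher with AA2P. Over the 433 tested entries, the log2 fold change had its median at 0.25, and miR-34c exceeded it by 0.18 and miR-34a by 0.13. In order of log2 fold change, miR-34c was the 75th and miR-34a the 86th of the 264 known miRNAs tested. Relative to its own mean over the 6 libraries, the median entry deviated by 0.19 (log2) in AA2P replicate 1, where miR-34c deviated by 0.45 and miR-34a by 0.33. In control replicate 2, where the median entry deviated by -0.15, miR-34c deviated by -0.29 and miR-34a by -0.39. In AA2P replicate 2, in contrast, the median entry deviated by 0.16, more than miR-34c at 0.04 and miR-34a at 0.14.

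**Figure D2:**
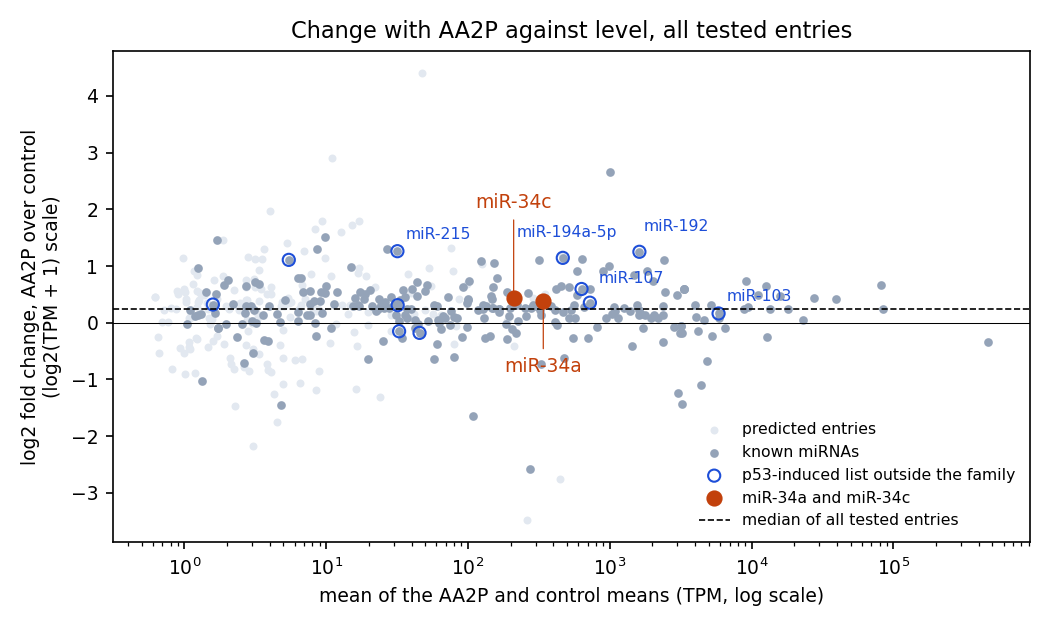
The log2 fold change (AA2P over control, log2(TPM + 1) scale) of each tested entry against its mean level in TPM on a log axis, with miR-34a and miR-34c filled in orange and the p53-induced list outside the family ringed. Both members lie a little above the dashed line, the median of all tested entries at 0.25, while miR-192, miR-194a-5p and miR-215 lie above 1.

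TPM of a library add up to a fixed total, so the share of the most abundant miRNA bears on all others. miR-21-5p took 42.2, 37.0 and 44.1% of AA2P libraries 1 to 3, against 51.3, 53.02 and 51.8% of control libraries 1 to 3. With totals taken over all entries but miR-21-5p, miR-34c averaged 219 ± 40.1 scaled TPM with AA2P and 197 ± 5.55 in controls, and miR-34a averaged 347 ± 38.0 scaled TPM with AA2P and 327 ± 32.1 in controls (SD, n = 3 each). The groups then overlapped for both members, and the log2 fold changes were 0.14 and 0.087 (limma, adjusted p = 0.560 for miR-34c and 0.652 for miR-34a).

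Trimmed-mean scaling gave much the same picture. miR-34c then stood at 247, 191 and 219 scaled TPM with AA2P and at 195, 192 and 203 in controls, and miR-34a at 368, 331 and 345 with AA2P and at 334, 291 and 350 in controls. AA2P replicate 2 fell among or below the control libraries for both members. The log2 fold changes were 0.15 and 0.10 (limma, adjusted p = 0.378 for miR-34c and 0.490 for miR-34a). Under this scaling 48 entries were called higher and 50 lower, where the deposited TPM gave 86 and 21, and the median entry lay at -0.0012 in place of 0.25. Quantile normalization was the exception for miR-34c, which kept its AA2P libraries above all controls with a log2 fold change of 0.32 (limma, adjusted p = 0.0783). It put miR-34a at -0.012.

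**Figure D3:**
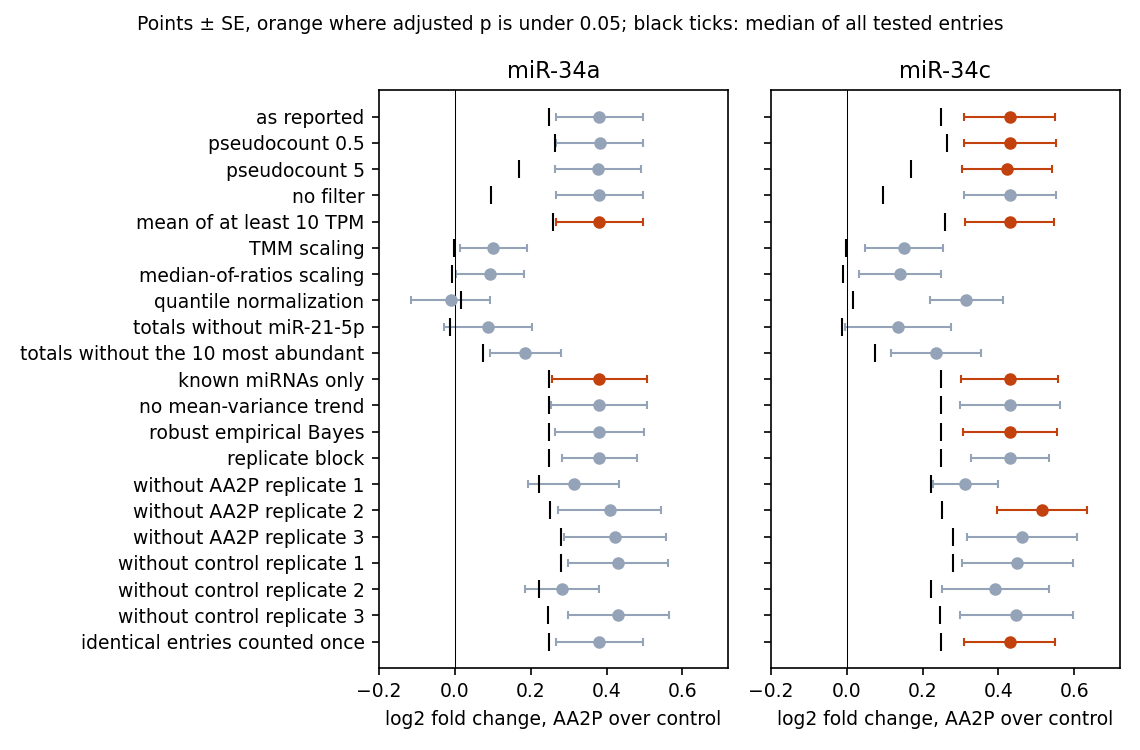
The log2 fold change of miR-34a (left) and miR-34c (right), AA2P over control, with its SE under each setting, in orange where the limma adjusted p was under 0.05, and black ticks for the median of all tested entries under the same setting. Under other scalings the points of both members move towards 0, as does the tick. They lie between -0.012 and 0.19 for miR-34a and between 0.14 and 0.32 for miR-34c. Quantile normalization differs, with the tick at 0.015, miR-34c well above it at 0.32 and miR-34a below it at -0.012.

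The call of miR-34c also ended with no filter on low values (limma, adjusted p = 0.157) and without the mean-variance trend (limma, adjusted p = 0.0690), at the same log2 fold change. Of the libraries, it held without AA2P replicate 2 (log2 fold change 0.51, limma adjusted p = 0.0378) but ended on leaving out any other library, with log2 fold changes of 0.31 without AA2P replicate 1, 0.46 without AA2P replicate 3, 0.45 without control replicate 1, 0.39 without control replicate 2 and 0.45 without control replicate 3 (limma, adjusted p = 0.0635 to 0.129). miR-34a was not called on leaving out any library. It passed, with the same log2 fold change, when only known miRNAs entered the fit (limma, adjusted p = 0.0146). Dropping entries under a mean of 10 TPM also gave it a call (limma, adjusted p = 0.0375). In these 2 fits 94 of 264 and 78 of 255 entries were called higher, against 86 of 433 as reported. miR-34c stayed called in both (limma, adjusted p = 0.00725 and 0.0253). Fewer entries were tested, and the SE of miR-34a was 0.126 and 0.1145, against 0.1142 as reported. What brought its call was not tested.

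The members' ratio within a library cancels any scaling. miR-34c stood at 67.2, 57.7 and 63.4% of miR-34a in AA2P libraries 1 to 3, against 58.2, 65.9 and 57.9% in control libraries 1 to 3. The groups overlapped. The log2 ratio averaged -0.67 ± 0.11 with AA2P and -0.72 ± 0.11 in controls (SD, n = 3 each), a difference of 0.048 with p = 0.7 in a two-sided exact permutation test. Differences between single AA2P and control libraries ran from -0.19 to 0.21. This is a range over single libraries and not an interval for the difference of the means. A small difference between the members is therefore not excluded. How reads shared by related members were counted is not stated, so the division between them is less certain than their sum.

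A list of 15 miRNAs outside the family, named p53-induced here, matched 13 entries, of which 11 were tested. Their induction by p53 was not tested. miR-192, miR-194a-5p, miR-215 and miR-107 were called higher (limma, adjusted p = 0.00127, 0.00443, 0.00162 and 0.0136), none was called lower, and 7 did not pass. These 4 of 11 stand beside the 19.9% of all tested entries called higher. The count takes each entry as separate, although miR-192, miR-194a-5p and miR-215 moved alike, with log2 fold changes of 1.25, 1.14 and 1.26. It is therefore not read as a result about the list. The miR-107 call ended under quantile normalization (log2 fold change 0.16, limma adjusted p = 0.266) and with totals taken without miR-21-5p (0.30, limma adjusted p = 0.0862), against 0.60 in the deposited TPM. The list's median log2 fold change was 0.35, against 0.25 for all tested entries, and members ran from -0.18 (miR-141) to 1.26 (miR-215). The most abundant entries of the list were miR-103, a relative of miR-107, and miR-192, whose gene p53 activates. miR-103 averaged 6179 ± 398 TPM with AA2P and 5531 ± 588 TPM in controls, a log2 fold change of 0.16 that did not pass (limma, adjusted p = 0.271). miR-192 averaged 2281 ± 230.3 TPM with AA2P and 956 ± 55.1 TPM in controls, a log2 fold change of 1.25.

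The ratio of each member to each of the 11 tested entries of the list was then taken within libraries, where scaling cancels. These ratios were chosen after the values were seen, and their direction largely follows from the fold change of the other miRNA, so they are read as sizes. For miR-34a the ratio was lower with AA2P for 5 entries and higher for 6, and the groups did not overlap for 5 and 1 of these. For miR-34c it was also lower for 5 and higher for 6, without overlap for 4 and 2. No ratio passed, with adjusted p of at least 0.192 over the 23 ratios compared, including that of miR-34c to miR-34a (two-sided exact permutation tests, which cannot go below p = 0.1 each).

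miR-34a stood at 17.0, 15.8 and 17.9% of miR-192 in AA2P libraries 1 to 3, against 31.0, 27.1 and 34.8% in control libraries 1 to 3. miR-34c stood at 11.4, 9.12 and 11.3% of miR-192 with AA2P and at 18.0, 17.9 and 20.1% in controls. On the log2 scale the ratio to miR-192 differed by -0.87 for miR-34a and -0.82 for miR-34c, that to miR-194a-5p by -0.76 and -0.71, and that to miR-215 by -0.88 and -0.83.

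Against miR-107 the difference of the log2 ratio was -0.21 for miR-34a, without overlap, and -0.17 for miR-34c, with overlap. Against miR-103 it ran the other way, at 0.22 for miR-34a and 0.27 for miR-34c, and neither overlapped. miR-16, a repressor of cyclin transcripts, moved most like the members, with differences of 0.027 for miR-34a and 0.076 for miR-34c. miR-34a stood at 43.9, 50.6 and 48.0% of miR-16 with AA2P and at 52.0, 43.2 and 44.8% in controls, so that the groups overlapped.

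**Figure D4:**
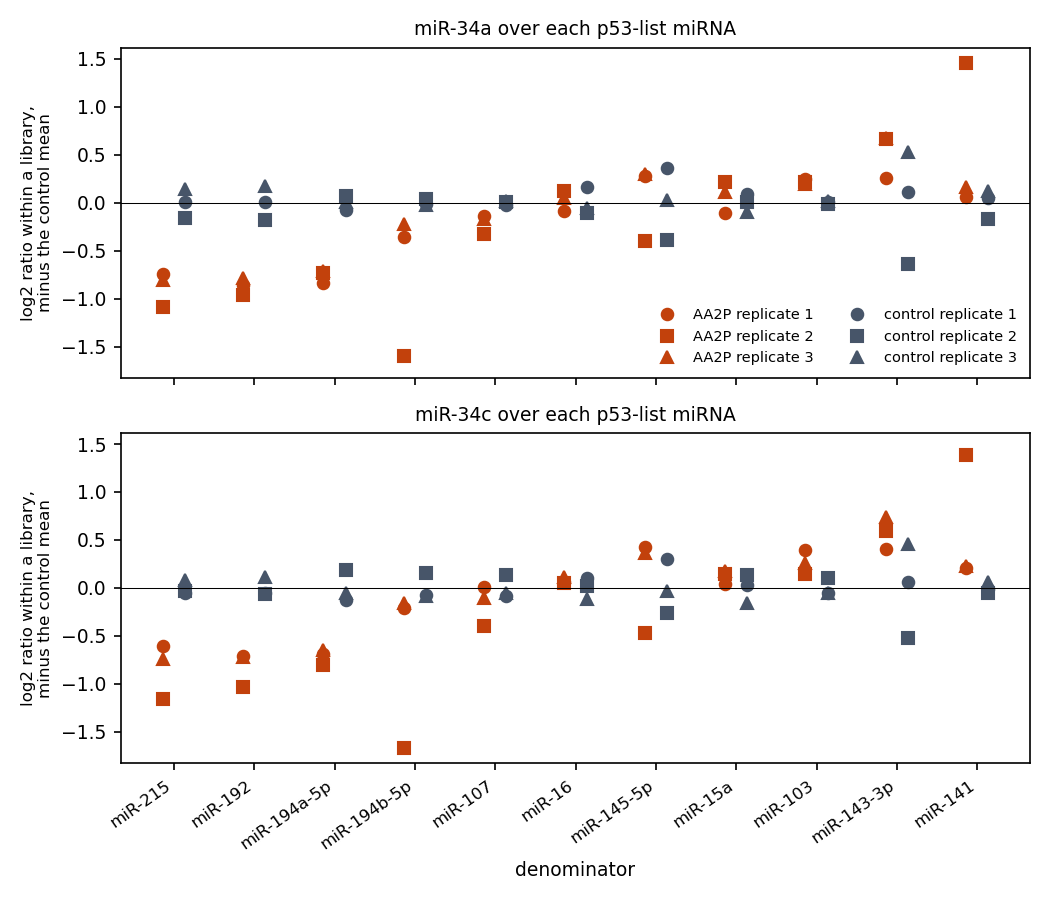
The log2 ratio of miR-34a (top) and miR-34c (bottom) to each of the 11 tested p53-list miRNAs in each AA2P and control library, minus the mean of the controls, so that 0 is the control level. AA2P points lie 0.51 or more below every control point for miR-215, miR-192 and miR-194a-5p, near 0 for miR-16 and above the controls for miR-103.

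The known miRNAs most like the members were found by the root mean square difference of log2(TPM + 1) over the 6 libraries, each entry centred on its own mean. For miR-34c these were miR-425-3p (0.042), miR-1306-3p (0.063), miR-503 (0.065), miR-130a (0.072) and miR-16 (0.077). For miR-34a they were miR-628-5p (0.044), miR-15b (0.047), miR-130a (0.074), miR-10a-3p (0.078) and miR-148b-5p (0.080). The members themselves differed by 0.091, which made each the 7th nearest of 263 to the other. miR-425-3p, the nearest to miR-34c, stood at 128, 103 and 109 TPM with AA2P and at 89.9, 82.6 and 84.3 TPM in controls. miR-628-5p, the nearest to miR-34a, stood at 31.3, 29.8 and 26.5 TPM with AA2P and at 24.0, 19.4 and 23.7 TPM in controls. In each pair AA2P replicate 1 was the highest library and control replicate 2 the lowest.

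Germ cells are the testis cells best known for this family in mouse. The list of germ and pluripotent cell miRNAs could hardly be read here, since names absent from the table have no level. No source used here says if those names were looked for, so no conclusion on germ cells is drawn. Of the list's 20 names only miR-371-5p was listed, at 0.11, 0.03 and 0.03 TPM with AA2P and at 0.04, 0.03 and 0 TPM in controls. For scale, 3 reads make 0.0834 to 0.112 TPM in AA2P libraries and 0.0930 to 0.116 TPM in controls. The gonadal somatic list summed to 1214 to 1374 TPM with AA2P and 1143 to 1249 TPM in controls, nearly all of it the widely expressed miR-140-3p. Of the gonadal miR-202, the 5p arm stood at 0.42 to 0.68 TPM with AA2P and 0.40 to 1.01 TPM in controls. This marker of the labelled cell type was thus low, if above the level of 3 reads in every library. Blood miRNAs summed to 4.48 to 14.3 TPM with AA2P and 4.87 to 5.90 TPM in controls, with 7 of 7 entries above 0 in at least 1 library. Only 2 of these entries were tested. miR-142-3p was called higher, with means of 1.98 TPM with AA2P and 0.51 TPM in controls. miR-486 stood lower, at 2.34 against 3.76 TPM (log2 fold change -0.53), and was not called. The highest sum was in AA2P replicate 1, where miR-223 stood at 5.40 TPM, against 0 to 0.06 TPM in every other library. Epithelial miRNAs summed to 2414 to 2959 TPM with AA2P and 1588 to 1675 TPM in controls, with 4 of 7 names listed. Of the 3 entries tested, miR-200b and miR-429 were called higher, where 19.9% of all tested entries were. The third, miR-141, had a log2 fold change of -0.18 and was not called. It stood at 20.5 to 63.5 TPM with AA2P and 45.3 to 47.7 TPM in controls. The fourth name, miR-205, averaged 0.12 TPM with AA2P and 0.16 TPM in controls and was not tested. Muscle and myoid miRNAs summed to 219.5 to 308 TPM with AA2P and 168 to 228 TPM in controls, and endothelial ones to 86.8 to 111 and 98.4 to 112 TPM, with none called. The part of these cell types in the levels of miR-34a and miR-34c was not tested, and in such bulk libraries more cells of a type cannot be told apart from more of a miRNA per cell.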

How the data were processed

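Small RNA of 3 AA2P and 3 control libraries was analysed from 1 deposited table, which gives TPM that the authors scaled to the same total over all entries of each library, known and predicted, and rounded. Bowtie was used in a role and version left unstated, per the submitters' processing notes. Genome build, miRBase release and the handling of reads shared by related miRNAs were not stated in any source used here. Low values step by 1 amount per library, which gave the depths of 25.8 to 36.0 Mreads and showed no length term. No count test was run.

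The 433 entries that reached 1 TPM in 3 or more of the 6 libraries were fitted as log2(TPM + 1) by limma 3.58.1 in R 4.3.3, with a mean-variance trend, 2 groups and no block. p-values were two-sided and adjusted by Benjamini-Hochberg, with calls under 0.05. The fit was tested on simulated data. Ratios and sums were compared by two-sided exact permutation tests.

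Deviations from the group mean correlated at 0.29, 0.062 and 0.18 between same-numbered libraries, and since 1 of these is under the limit of 0.1, they were not treated as pairs. Within a group, no library repeated the reads of another (chi-square per degree of freedom at least 144 between implied reads). AA2P libraries were not compared with controls in this way, and the check cannot detect another preparation of the same RNA.

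The members and lists were chosen with earlier results of these data known. Named miRNAs were the members, the 5 known entries nearest to each, the most abundant entries of the p53-induced list, those of the germ cell list, and called list entries. A few other entries of the lists were named to describe them. The 22 ratios to the tested entries of the p53-induced list were added after the values were seen. Planned arm ratios were not run, since no member had 2 arms. No miRNA sequence was at hand, so none is shown.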

Additional observations from a re-analysis of the deposited data

How the results depend on the processing

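Of 20 alternatives, the call of miR-34c held in 7 and miR-34a was called in 2. miR-34c kept its direction in all 20. Its call ended with no filter on low values (log2 fold change 0.43, 1645 entries tested), without the mean-variance trend (0.43), with the replicate block (0.43; limma, adjusted p = 0.0645), and under scaling by trimmed means (0.15) or by median ratios (0.14), quantile normalization (0.32), totals without miR-21-5p (0.14) and totals without the 10 most abundant entries (0.24). The scalings lowered the median of all entries as well. Leaving out each library in turn gave 0.31 to 0.51 for miR-34c and 0.28 to 0.43 for miR-34a. miR-34a gained a call with a mean of at least 10 TPM and with known miRNAs only (0.38 in each) and reversed to -0.012 under quantile normalization; the cause was not tested.

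Entries called, 107 as reported, were 57 with no filter, 63 with the replicate block (52 higher and 11 lower) and 62 to 98 on leaving out each library, the lowest without control replicate 3. Higher and lower calls were 48 and 51 with median-of-ratios scaling, 44 and 40 with quantile normalization, 39 and 43 without miR-21-5p and 55 and 36 without the 10 most abundant. Of the libraries, 3 of 3 AA2P and 2 of 3 control ones deviated most like their own number. The difference in the ratio of miR-34c to miR-34a was -0.0013 without AA2P replicate 1 and up to 0.11 without another library. The summed level differed by 42.4 to 79.1 scaled TPM under other scalings, 153 TPM with the replicate block (exact sign-flip p = 0.25, the smallest that 3 pairs allow) and 114 to 174 TPM on leaving out a library.

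Among other named miRNAs, none of them called, miR-103 reversed under trimmed-mean (-0.12), median-of-ratios (-0.13), no-miR-21-5p (-0.13) and no-top-10 totals (-0.032), miR-16 under quantile normalization (-0.044), miR-141 without AA2P replicate 2 (-0.49 to 0.30 over all single libraries left out) and miR-143-3p without control replicate 2 (-0.36 to 0.071). Ratios near 0 also changed sign: that of miR-34a to miR-16 (-0.025 to 0.11 on leaving out a library; -0.019, -0.025 and -0.00025 without AA2P replicate 2, control replicate 2 and control replicate 3), that of miR-34a to miR-145-5p (-0.13 to 0.29, and -0.015 with a pseudocount of 0.5) and that of miR-34c to miR-145-5p (-0.050 to 0.40).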
